A study of Oryctolagus cuniculus with 4 samples.

Results

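The cells described here were endothelial cells of the rabbit bladder mucosa in which a transcript of PROX1 was counted. They were chosen by a gate on counts of unique molecular identifiers (UMIs, 1 per captured transcript). Barcodes were kept from 500 UMIs and 200 genes upwards, provided that 13 mitochondrial genes held no more than 15% of the UMIs. A kept cell belonged to the group with at least 1 UMI of PROX1 and of any of PECAM1, CDH5, EMCN or TM4SF18. The fibroblast genes DCN and LUM had to hold under 0.5% of its UMIs, the keratins KRT15, KRT18 and KRT7 under 0.2%, and the leukocyte gene PTPRC had to be at 0. The gate selected 201 of 21945 kept cells (0.916%), called PROX1+ cells below. Without the PROX1 condition it held 5884 cells, of which the other 5683 had no PROX1 UMI and are called PROX1-0 cells.

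PROX1 is a homeobox transcription factor that establishes and maintains lymphatic endothelial identity. Lymphatic capillaries drain fluid, macromolecules and immune cells from the tissue, and they attract dendritic cells and T cells with the chemokine CCL21. Their classical markers include the hyaluronan receptor LYVE1, the secreted glycoprotein MMRN1 and VEGFR3, while blood capillaries and venules carry CD34, SELP, SELE, ESM1 and high VWF.

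All samples came from bladder mucosa of adult New Zealand rabbits, a tissue that the labels call urothelium, and each gave 1 library made with a 3' single-cell kit after collagenase digestion. The 2 Normal samples were mucosa at homeostasis. The 2 Injury samples were taken 10 days after a focal resection of the mucosa, when new urothelium had just closed over the defect. No transgene, deletion or test drug is described for either group. Per the paper, the resection was made through the opened bladder under pentobarbital, with marking sutures and a catheter. It describes no sham operation for the Normal samples. Whether each library came from 1 animal is not stated in the labels, so p-values measure the spread between these samples.

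The 4 libraries Injury 1, Injury 2, Normal 1 and Normal 2 held 6811, 6141, 5823 and 6884 barcodes, of which 6081, 5529, 4308 and 6027 were kept. Normal 1 thus had the fewest barcodes and the fewest kept. The PROX1+ cells numbered 57 and 78 in the Injury 1 and Injury 2 libraries and 39 and 27 in the Normal 1 and Normal 2 libraries. Their median UMI count was 6228, 5879.5, 7013 and 7767 in that order, against 6101, 6165, 4684 and 6410.5 in PROX1-0 cells, so the PROX1+ cells were the deeper ones in both Normal libraries. Of the kept barcodes, 51 occurred in more than 1 library, and 0 of these were PROX1+ cells. Barcodes among the highest 5% of doublet scores of their library made up 21.1%, 3.85%, 2.56% and 11.1% of the PROX1+ cells, against 2.26%, 2.23%, 5.97% and 3.57% of the PROX1-0 cells. The Injury 1 and Normal 2 members thus held more barcodes with a high doublet score than the cells they were compared with, and the part of doublets in the results was tested only by leaving those barcodes out.

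The Normal 1 library stood apart, and its members went against the working name of lymphatic-like cells. CCL21 had a UMI in 23, 45, 0 and 7 of the PROX1+ cells of Injury 1, Injury 2, Normal 1 and Normal 2. MMRN1 had one in 23, 47, 0 and 8. PKHD1L1 and SEMA3D, the other markers that the remaining libraries' members carried, were at 0 in all 39 Normal 1 members, where a count of 0 allows up to 7.69% of cells with a UMI and sets no limit on cells that express the gene. LYVE1 had a UMI in 10 of those 39 cells (25.6%), close to the 19.3% of the PROX1-0 cells of the library. CD34, a blood endothelial marker, had one in 34 of the 39 (87.2%). The whole Normal 1 library held 54 UMIs of CCL21 in kept cells, out of 24798544 UMIs of all genes. Injury 1, Injury 2 and Normal 2 held 13315, 9864 and 1786 of CCL21, out of larger totals of 43681328 to 44542420 UMIs. The cells are therefore named by the gate, and the counts of calls and the genes named in the Injury comparisons are also given without Normal 1.

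PROX1+ cells made up 0.937% of the kept cells of Injury 1 (95% Wilson interval 0.724 to 1.21) and 1.41% of Injury 2 (1.13 to 1.76). They made up 0.905% of Normal 1 (0.663 to 1.24) and 0.448% of Normal 2 (0.308 to 0.651). The intervals cover counting error only. The means were 1.17% ± 0.335 (SD, n = 2) after injury and 0.677% ± 0.323 (SD, n = 2) in normal mucosa. Both Injury samples lay above both Normal samples, though Injury 1 and Normal 1 differed by less than their intervals. The difference of 0.497 percentage points gave p = 0.3333 in a two-sided exact permutation test, the smallest value that 2 against 2 samples allow. Without the highest doublet scores, or at a limit of 10% mitochondrial UMIs, Normal 1 passed Injury 1 (0.934% against 0.781%, and 0.994% against 0.921%) and p was 0.667. As a share of the endothelial gate, the values were 4.25%, 8%, 2.13% and 1.55%. With each cell thinned to 1000 UMIs they were 1.63%, 4.19%, 0.388% and 0.360%. PROX1+ cells that also had an MMRN1 UMI were 0.378%, 0.850%, 0% and 0.133% of kept cells, and the 0 of Normal 1 allows up to 0.0696% of cells with these UMIs (3 counts).

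Fibroblasts, which are not endothelial, served as the comparison for these shares. Among cells with at least 0.5% of their UMIs from DCN and LUM, called fibroblast-gated cells, 3.48%, 5.07%, 3.14% and 1.22% had a PROX1 UMI in Injury 1, Injury 2, Normal 1 and Normal 2. Their median depths were 8054, 8612.5, 5010 and 7025.5 UMIs. In Normal 1 the endothelial gate was below this share, with overlapping intervals, and in Injury 1 and Normal 2 its interval overlapped that of the fibroblast-gated cells. Only in Injury 2 did the intervals separate, at 6.46 to 9.87% in the gate against 4.27 to 6.002%. At 2 or more PROX1 UMIs the gate held 2.31%, 5.33%, 0.437% and 0.345%, and the fibroblast-gated cells 0.413%, 1.17%, 0.913% and 0.210%. At that level both Injury gates stood above the fibroblast-gated cells, while the Normal 1 gate lay below them. Whether these UMIs in fibroblast-gated cells were free RNA or transcripts of the cells was not tested.

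**Figure D1:**
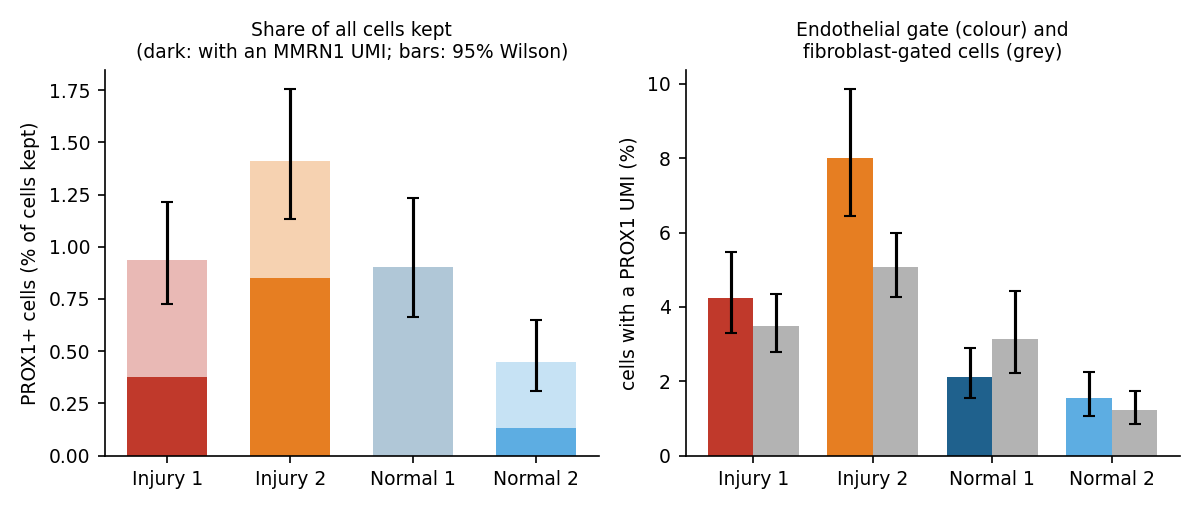
Left, PROX1+ cells as a percent of kept cells per library, with the part carrying an MMRN1 UMI in the darker tone and 95% Wilson intervals on the total. Right, percent of endothelial-gated (colour) and fibroblast-gated cells (grey) with a PROX1 UMI, with 95% Wilson intervals. Injury 2 is highest at 1.41% of kept cells, and Normal 1 has no darker part.

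The number of PROX1 UMIs in a cell went with its other lymphatic transcripts. Cells just inside the gate had exactly 1 PROX1 UMI. These numbered 26, 26, 31 and 21, or 104 of the 201, and the largest count was 16, 21, 3 and 12. Among the 104 cells with 1 UMI, 11 had an MMRN1 UMI (10.6%) and 11 a CCL21 UMI. Among the 97 with 2 or more, 67 had MMRN1 (69.1%) and 64 had CCL21 (66.0%). Just outside, 25 of the 5683 PROX1-0 cells had MMRN1 (0.440%) and 60 had CCL21. The step held within each of Injury 1, Injury 2 and Normal 2, and no Normal 1 cell with PROX1 had a UMI of either gene, while 6 of its 1793 PROX1-0 cells had MMRN1.

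MMRN1 was detected in 15.4%, 15.4%, 0% and 14.3% of the cells with 1 PROX1 UMI, and in 61.3%, 82.7%, 0% and 83.3% of those with more. In fibroblast-gated cells its share was 0.0917%, 0.282%, 0% and 0.0838%, far under the PROX1+ cells of 3 libraries. With each cell thinned to 1000 UMIs, MMRN1 was found in 35.6%, 53.6%, 0% and 22.6% of all PROX1+ cells. The thinned share in PROX1-0 cells was 0.0945%, 0.435%, 0.0684% and 0.191%. CD34 went the other way in the same 3 libraries, from 78.2%, 80.5%, 80.0% and 87.8% of PROX1-0 cells to 29.0%, 21.2%, 87.5% and 33.3% of cells with 2 or more PROX1 UMIs. Only 8 and 6 cells stood behind the Normal 1 and Normal 2 values at that level.

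**Figure D2:**
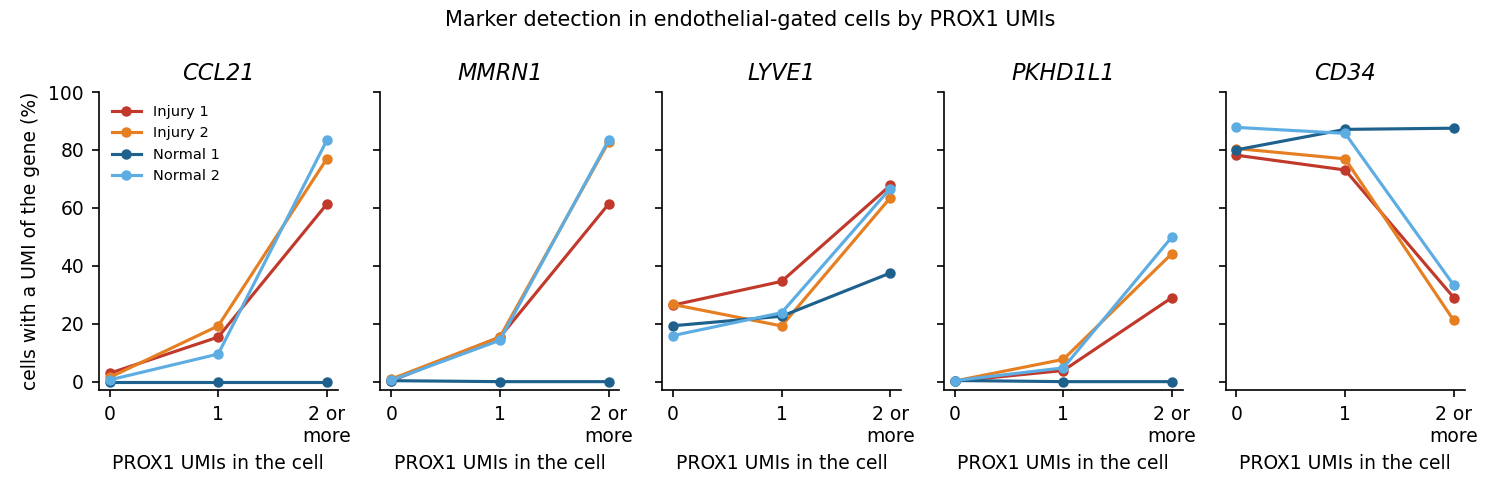
Percent of endothelial-gated cells with a UMI of each marker (y axis) against the number of PROX1 UMIs in the cell (x axis: 0, 1, 2 or more), 1 line per library. CCL21, MMRN1 and PKHD1L1 climb in Injury 1, Injury 2 and Normal 2 and stay at 0 among Normal 1 cells with PROX1, and CD34 falls in the same 3 libraries.

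At least 2 of the 5 markers CCL21, MMRN1, LYVE1, PKHD1L1 and SEMA3D were found together in 23, 46, 0 and 8 PROX1+ cells, or 40.4%, 59.0%, 0% and 29.6%. In PROX1-0 cells the share was 0.624%, 1.11%, 0.335% and 0.585%. In the 3 libraries with marked cells the gate thus held cells with a joint lymphatic profile and cells without it. It also missed a few, since 10 of the 85 endothelial-gated cells with 2 or more MMRN1 UMIs had no PROX1 UMI. Of the CCL21 UMIs in kept cells of Injury 1, Injury 2 and Normal 2, the PROX1+ cells held 76.5%, 69.6% and 84.7%, and of the MMRN1 UMIs 76.9%, 84.3% and 54.2%.

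To ask which other genes went with PROX1, UMIs were summed per library over PROX1+ and over PROX1-0 cells and compared within libraries by edgeR's quasi-likelihood test. Genes used by the gate were left out. Of 6343 genes tested, 66 were higher in PROX1+ cells (1.04%) and 55 lower (0.867%) at a Benjamini-Hochberg adjusted p under 0.05. DESeq2 called 50 higher and 23 lower. The counts rested on single libraries. Without Normal 1 they rose to 152 higher and 151 lower, and without Normal 2 they were 43 and 44. Without Injury 1 they fell to 8 higher and 10 lower, and without Injury 2 to 24 and 19. Whichever library was left out, 7 of the 66 and 9 of the 55 stayed called, with CCL21, MMRN1, ABI3BP, ITM2A, EPB41L2 and LAMA4 among the former and IL1B, CD74, HLA-DRA, AIF1 and ARG1 among the latter. ENSOCUG00000030067 also stayed called, and the other genes named below as called in this comparison lost the call without at least 1 library. The PROX1+ sums held 251154 to 528543 UMIs, so that 3 UMIs were worth 5.68 to 11.9 CPM (UMIs scaled to the same total in every sum), and lower levels were not measurable.

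Among lymphatic endothelial markers, 4 of 7 tested were higher in PROX1+ cells and 0 lower, with a median log2 fold change of 1.62 against -0.03 over all genes tested. CCL21, the chemokine that draws CCR7-bearing cells into lymphatics, stood at 26458, 12981, 0 and 6020 CPM in PROX1+ cells of Injury 1, Injury 2, Normal 1 and Normal 2. In PROX1-0 cells it stood at 43.5, 153, 0 and 9.08 CPM. It was thus far higher in the PROX1+ cells of 3 libraries and listed at 0 in both cell groups of Normal 1 (log2 fold change 8.24, SE 0.53, adjusted p = 2.92e-07, edgeR). Its share of cells with a UMI among fibroblast-gated cells was 3.301%, 2.29%, 0.203% and 0.293%.

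MMRN1, a multimeric glycoprotein stored by lymphatic endothelium and platelets, was at 1065, 1440, 0 and 458 CPM against 3.19, 10.8, 0.716 and 4.43 CPM. It again separated the cell groups in every library except Normal 1 (log2 fold change 7.03, SE 0.39, adjusted p = 2.94e-08, edgeR). LYVE1, the hyaluronan receptor of initial lymphatics, was at 322, 350, 45.7 and 267 CPM against 89.7, 92.4, 65.3 and 38.6 CPM. Its levels in PROX1-0 cells were not low, and Normal 1 was reversed in order (log2 fold change 1.62, SE 0.30, adjusted p = 0.0098, edgeR). The call was lost without Injury 1 (adjusted p = 0.263) or without Normal 2 (0.0679).

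COLEC12, a scavenger receptor, was at 44.2, 168, 6.53 and 39.8 CPM against 18.2, 13.7, 6.75 and 23.7 CPM. Injury 2 carried most of its rise (log2 fold change 1.84, SE 0.42, adjusted p = 0.0334, edgeR), and without that library the fold change was 0.78 with an adjusted p of 0.570. Fibroblast-gated cells also carried COLEC12, with a UMI in 80.6%, 75.0%, 37.3% and 66.8% of them. PKHD1L1, a large membrane protein, and SEMA3D, a semaphorin, were under the filter on low counts. PKHD1L1 stood at 41.6, 73.8, 0 and 43.8 CPM in PROX1+ cells and at most 0.920 CPM in PROX1-0 cells. SEMA3D stood at 26.0, 70.0, 0 and 39.8 CPM and at most 0.621 CPM.

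The co-receptor for VEGF-C, NRP2, did not pass the test at 80.5, 51.1, 52.3 and 27.9 CPM against 59.1, 55.3, 54.0 and 45.7 CPM (log2 fold change -0.11, adjusted p = 0.899, edgeR). GPM6A, a membrane glycoprotein, had a fold change of 0.01 on the same scale. Across VEGF and angiopoietin signalling genes, 0 of 10 tested were called, with a median log2 fold change of -0.15. TEK, the angiopoietin receptor, stood at 114, 81.4, 75.2 and 83.6 CPM in PROX1+ cells and 118, 104, 102 and 80.1 CPM in PROX1-0 cells, and the groups overlapped. None of 4 tested lymphatic valve and collecting vessel genes was called either, GJA1 being at 199 to 320 CPM in PROX1+ cells and 256 to 409 CPM in PROX1-0 cells.

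Leukocyte trafficking genes gave 2 higher of 8 tested, CCL21 and STAB1, with a median log2 fold change of 0.23. STAB1, a scavenger receptor of lymphatic and sinusoidal endothelium, was at 372, 407, 55.5 and 207 CPM against 147, 147, 57.5 and 100.1 CPM. It was higher in every library but Normal 1, where the levels were close (log2 fold change 0.99, SE 0.18, adjusted p = 0.00931, edgeR).

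Basement membrane and matrix genes gave 3 higher of 12 tested, LAMA4, NID2 and TIMP3, and 0 lower, with a median of 0.19. Summed over the 14 measured, PROX1+ cells had 3167, 4495, 3673 and 3787 CPM. Capillary-gated cells (PROX1-0, a UMI of KDR or ESM1, none of SELP, SELE and BMX) had more, 5529, 5991, 4143 and 4090 CPM. Venous-gated cells (PROX1-0, a UMI of SELP or SELE, none of KDR, ESM1 and BMX) had less, 1729, 2039, 1064 and 1973 CPM. A high level of the list was thus not particular to PROX1+ cells. LAMA4, the laminin chain of endothelial basement membranes, was at 229, 286, 118 and 159 CPM against 79.0, 112, 53.8 and 75.1 CPM. It was higher in PROX1+ cells of all 4 libraries, Normal 1 included (log2 fold change 1.20, SE 0.14, adjusted p = 0.000128, edgeR). TIMP3, a matrix-bound inhibitor of metalloproteinases, was higher in all 4 as well, at 889 to 1503 CPM against 473 to 993 CPM (log2 fold change 0.76). NID2, a nidogen linking laminin and collagen IV, was at 70.2, 110, 26.1 and 63.7 CPM against 23.1, 46.4, 25.5 and 20.7 CPM (log2 fold change 1.11).

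The naming rule picked the 12 largest rises among called genes that had a symbol, averaged 20 CPM or more in the higher cell group and went the same way in every library. ITM2A, a membrane glycoprotein, was at 197, 278, 58.8 and 87.6 CPM against 13.02, 10.3, 22.5 and 15.4 CPM (log2 fold change 3.22, SE 0.37, adjusted p = 0.000128, edgeR). EPB41L2, a cytoskeletal adaptor of the protein 4.1 family, was at 252, 314, 111 and 211 CPM against 66.0, 65.8, 69.4 and 44.2 CPM (log2 fold change 1.74). HOXA5, a homeobox factor, stood at 59.8, 108, 26.1 and 27.9 CPM against 15.7, 11.3, 15.1 and 15.4 CPM (log2 fold change 1.86). The PROX1+ levels of all 3 were lowest in Normal 1, and above the PROX1-0 level there. TGFB2, a secreted TGF-β ligand, was at 83.1, 235, 65.3 and 151 CPM against 40.3, 57.9, 58.7 and 48.4 CPM (log2 fold change 1.23).

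The others of the 12 were PLCE1 (log2 fold change 3.66), ARHGAP42 (3.12), EMILIN1 (2.12), WLS (1.68), KIRREL1 (1.63), ARHGEF40 (1.52), COBLL1 (1.39) and RGS5 (1.20). They included regulators of small GTPases (PLCE1, ARHGAP42, ARHGEF40), the Wnt secretion factor WLS and EMILIN1, an elastic-fibre protein of lymphatic vessels. RGS5 is a pericyte gene and the only 1 of 6 smooth muscle and pericyte markers called. Summed over that list's 8 measured markers, PROX1+ cells had 553, 90.8, 268 and 474 CPM and PROX1-0 cells 154, 176, 118 and 269 CPM, higher in PROX1+ cells of 3 libraries. The part of pericyte RNA in the RGS5 value was not tested.

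Some large rises lay outside the rule and were picked after their values were seen. ABI3BP, an extracellular matrix protein, was at 278, 388, 0 and 75.7 CPM against 4.91, 5.23, 3.37 and 1.79 CPM (log2 fold change 5.19). It is not particular to these cells, since fibroblast-gated cells held 249 to 659 CPM of it. CCN3, a matricellular protein, was at 148, 58.7, 0 and 91.6 CPM against at most 3.57 CPM (log2 fold change 4.96), and CXCL5, a neutrophil chemokine, at 54.6, 71.9, 0 and 11.9 CPM against at most 7.86 CPM (3.66). All 3 were at 0 in the Normal 1 members. Of the calls, 10 higher and 20 lower genes had an Ensembl identifier without a symbol. The largest of these rises, ENSOCUG00000030067, was at 333, 354, 3.27 and 207 CPM against 0.983, 4.22, 0 and 1.09 CPM (log2 fold change 7.17).

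The genes lower in PROX1+ cells were led by myeloid transcripts, with 3 of 4 tested myeloid and lymphoid markers lower and a median log2 fold change of -4.58. IL1B, the inflammatory cytokine, was at 64.96, 30.3, 0 and 15.9 CPM in PROX1+ cells against 1729, 1534, 151 and 529 CPM in PROX1-0 cells (log2 fold change -5.33, SE 0.22, adjusted p = 5.37e-10, edgeR). CD74, the invariant chain of MHC class II, was at 5.20, 5.68, 3.27 and 0 CPM against 137, 187, 20.8 and 40.9 CPM (log2 fold change -4.92). Its levels in PROX1+ cells stood for at most 3 UMIs per library, so the size of the fall is not well measured. Every library went the same way for both. HLA-DRA, S100A12, AIF1 and IL1RN followed, and ARG1 had 0 UMIs in PROX1+ cells and was at least 12.5-fold lower, against 3 UMIs over the group.

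The summed level of 10 measured myeloid and lymphoid markers, CD74, HLA-DRA and AIF1 among them, was 112, 35.9, 29.4 and 920 CPM in PROX1+ cells. In PROX1-0 cells it was 1214, 835, 274 and 443 CPM. The sum was thus lower in PROX1+ cells of every library but Normal 2, where it was higher. All of the Normal 2 PROX1+ level came from S100A9. The gate asked for only 1 endothelial gene, and PROX1-0 cells needed no PROX1 UMI besides. Exactly 1 endothelial gene had a UMI in 22.4%, 22.7%, 19.0% and 14.3% of PROX1-0 cells. In PROX1+ cells the share was 15.8%, 19.2%, 12.8% and 22.2%. Whether the PROX1-0 sums held myeloid cells that passed the gate was not tested. When at least 2 endothelial genes were asked of every cell, which kept 166 of the 201, 29 genes were higher and 9 lower. Then IL1RN and CD44 turned to log2 fold changes of 0.15 and 0.07. The 29 and 9 were all among the genes called before.

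Outside the myeloid genes, the lower genes included a secreted chaperone and a junction molecule. CLU, which encodes clusterin, was at 1632, 384, 2444 and 1437 CPM against 3210, 2316, 3299 and 3432 CPM (log2 fold change -1.37, SE 0.24, adjusted p = 0.00673, edgeR). JAM2, an adhesion molecule of venular junctions and the only 1 of 8 junction genes called, was at 59.8, 49.2, 81.7 and 51.8 CPM against 98.3, 97.7, 129 and 72.4 CPM (log2 fold change -0.83). Both were lower in PROX1+ cells of all 4 libraries. MORC4, GOLT1B and MATN2 fell by 1.47, 1.27 and 0.93 on the log2 scale. CD44, a hyaluronan receptor, fell by 1.52, but like IL1RN it did not fall when at least 2 endothelial genes were asked of every cell.

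Blood endothelial markers did not pass the test, with 0 of 9 called and a median log2 fold change of -0.28. VWF was at 3549, 1837, 1010 and 2118 CPM in PROX1+ cells and 3597, 2884, 1417 and 1594 CPM in PROX1-0 cells (log2 fold change -0.28, adjusted p = 0.486, edgeR). SELP, the P-selectin of venules, was at 1133, 429, 441 and 1214 CPM against 1545, 1120, 1136 and 1008 CPM (-0.81, adjusted p = 0.0763). CD34 was at 288, 318, 506 and 466 CPM against 526, 580, 478 and 641 CPM (-0.62, adjusted p = 0.0569). Each was lower in PROX1+ cells of 3 libraries and not in the fourth. ESM1, a marker of tip cells and capillaries, ranged from 31.2 CPM in Injury 1 to 490 CPM in Normal 1 among PROX1+ cells.

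The remaining lists showed no call at an adjusted p under 0.05 in this comparison. Of pan-endothelial genes other than those of the gate 0 of 9 passed (median log2 fold change -0.15), of endothelial transcription factors 0 of 6 (0.05), and of lipid uptake and transport genes 0 of 8 (-0.05). Of inflammation-response genes 0 of 11 passed (-0.29), of dissociation-response genes 0 of 10 (0.20), of cell cycle genes 0 of 6 (-0.42) and of interferon-response genes 0 of 5 (-0.50). PTGS2, the inducible cyclooxygenase, came nearest at 4168, 2742, 555 and 1242 CPM against 1624, 762, 852 and 452 CPM (log2 fold change 0.98, adjusted p = 0.0795, edgeR). Fibroblast markers gave 0 of 4 and mast cell markers 0 of 1, while urothelial, plasma cell and glial markers were under the filter. Summed over 5 fibroblast markers outside the gate, PROX1+ cells had 577, 475, 206 and 3564 CPM and PROX1-0 cells 480, 765, 300 and 2276 CPM, highest in Normal 2 in both.

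**Figure D3:**
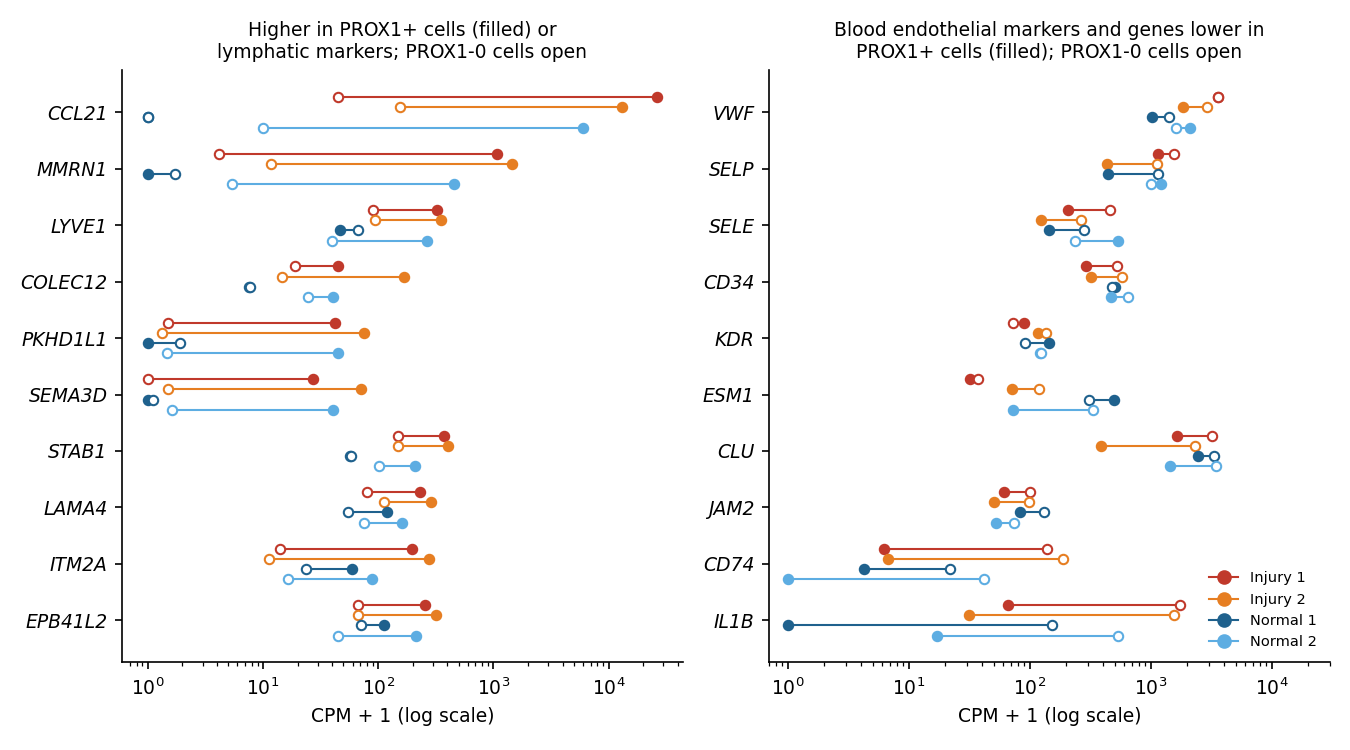
Level per library (x axis, CPM + 1 on a log scale) of lymphatic markers and genes higher in PROX1+ cells (left) and of blood endothelial markers and genes lower in them (right). Filled points are PROX1+ cells and open points PROX1-0 cells of the same library. CCL21 and MMRN1 are apart by orders of magnitude in 3 libraries, and VWF and KDR lie close together.

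The PROX1+ cells were not of 1 kind. Split by a UMI of MMRN1, a gene picked for this after its values were seen and therefore described without a test, 78 cells had it and 123 did not. The former made up 40.4%, 60.3%, 0% and 29.6% of the PROX1+ cells of Injury 1, Injury 2, Normal 1 and Normal 2. Of the 78, 74 also had a CCL21 UMI (94.9%), 59 LYVE1 (75.6%), 39 PKHD1L1 (50%) and 34 SEMA3D (43.6%). Of the 123, only 1 had CCL21 (0.813%), 28 LYVE1 (22.8%), 0 PKHD1L1 and 1 SEMA3D. PROX1 itself gave 512 UMIs in the 78 cells and 185 in the 123.

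Blood endothelial genes divided the same cells in the opposite sense. CD34 had a UMI in 7 of the 78 (8.97%) and in 106 of the 123 (86.2%), within the 78.2 to 87.8% of the PROX1-0 cells of the 4 libraries. SELP had one in 4 (5.13%) against 75 (61.0%), ESM1 in 0 against 29 (23.6%), and SELE in 4 against 48 (39.0%). The 123 include all 39 members of Normal 1, so these pooled shares mix library and condition with the split. Within the Injury libraries the shares were 7.14% against 83.1% for CD34 and 2.86% against 72.3% for SELP. They were 0% against 15.4% for ESM1 and 4.29% against 41.5% for SELE. VWF had a UMI in most cells of either kind, at 75.6% and 91.9%, but by level it was lower in the MMRN1+ cells. It stood at 1485, 916 and 515 CPM there in Injury 1, Injury 2 and Normal 2, against 4670, 2820 and 2483 CPM in the others. The order of the VEGF receptor KDR differed between libraries. It had a UMI in 47.8% of MMRN1+ (29.2 to 67.0) against 29.4% of MMRN1-0 cells (16.8 to 46.2) in Injury 1, and in 23.4% (95% Wilson interval 13.6 to 37.2) against 64.5% (46.9 to 78.9) in Injury 2. In Normal 2 the KDR shares were 37.5% and 42.1%.

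By level, CCL21 stood at 75216, 25139 and 32476 CPM in the MMRN1+ cells of Injury 1, Injury 2 and Normal 2, and at 0, 3.91 and 0 CPM in the MMRN1-0 cells. LYVE1 stood at 776, 623 and 1203 CPM against 76.2, 58.7 and 53.8 CPM, the latter below the PROX1-0 level in both Injury libraries and above it in Normal 2. ITM2A stood at 554, 539 and 451 CPM against 4.01, 0 and 4.89 CPM. The Normal 1 members, which all lacked MMRN1, nevertheless held ITM2A above the PROX1-0 level of their library, as given above. Of these genes CCL21 varied most between the MMRN1+ cells of the libraries, and ITM2A least. The 8 cells of Normal 2 held 46557 UMIs, and 3 UMIs were worth 64.4 CPM.

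CCL2, the monocyte chemokine, lay mostly in cells without MMRN1 in these 3 libraries, at 7.39, 22.0 and 43.0 CPM in MMRN1+ cells and 1940, 1318 and 1022 CPM in the others. CD34 behaved alike, at 7.39, 25.7 and 64.4 CPM against 441, 630 and 557 CPM. The values of 43.0 and 64.4 CPM in Normal 2 stood for at most 3 UMIs.

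Over the 65 genes called higher in PROX1+ cells other than MMRN1, 64, 62 and 61 were above the PROX1-0 level in the MMRN1+ cells of Injury 1, Injury 2 and Normal 2. The median difference was 2.32, 2.21 and 2.23 in log2(CPM + 10). In MMRN1-0 cells 43, 39 and 42 of the 65 were above it, with medians of 0.40, 0.25 and 0.19, and in Normal 1, where all members lacked MMRN1, 40 of 65 with a median of 0.21. These are the genes the comparison called on the same cells, so the values only locate the difference. For the 55 lower genes the medians were -2.29, -2.14 and -1.84 in MMRN1+ cells and -0.39, -0.49, -0.45 and -0.48 in MMRN1-0 cells of Injury 1, Injury 2, Normal 1 and Normal 2.

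**Figure D4:**
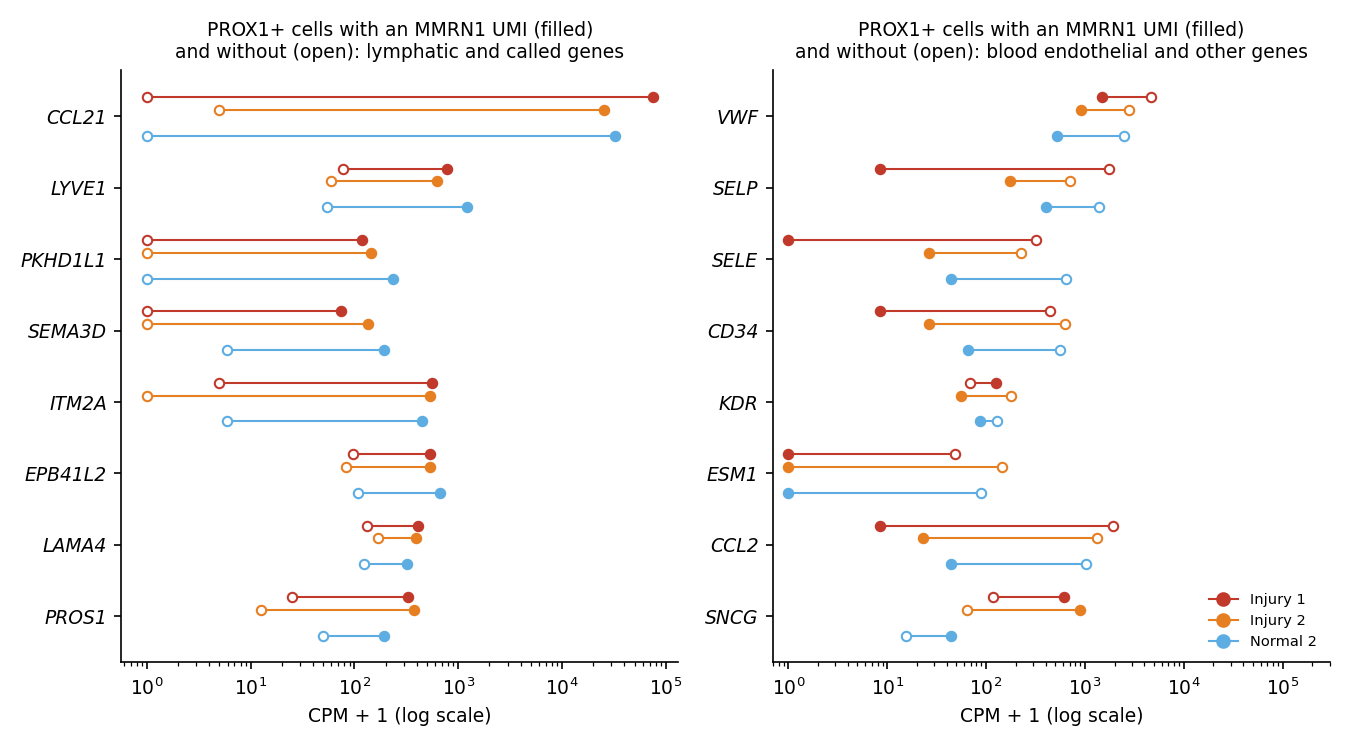
Level per library (x axis, CPM + 1 on a log scale) in PROX1+ cells with an MMRN1 UMI (filled) and without (open), for lymphatic and called genes (left) and blood endothelial and other genes (right). Normal 1 had no cell with MMRN1 and is not drawn. Lymphatic genes sit to the right in the filled points, and SELP, SELE, CD34 and CCL2 in the open ones, in Injury 1, Injury 2 and Normal 2.

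The comparison of Injury with Normal within PROX1+ cells, which the design offers, gave no call. By edgeR's quasi-likelihood test 0 of 3148 genes (0%) passed an adjusted p under 0.05, and 212 had an unadjusted p under 0.05. DESeq2 called 3 higher after injury, IGF1, SNCG and ENSOCUG00000007445, and 2 lower, CRYAB and ABCC9, which are named for that after their values were seen. With a library left out the count was 2 to 90, the lowest without Injury 1 and the highest without Normal 2, and with 1 sample left in a group that sample is assumed to vary like the others. Without Normal 1 the test called 28 genes, 3 higher and 25 lower after injury. The MMRN1+ cells held 35.2%, 51.6%, 0% and 18.5% of the UMIs in the 4 sums, so this makeup moved with the condition, and its part in the values below was not tested.

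IGF1, the growth factor, was at 286, 766, 26.1 and 75.7 CPM in PROX1+ cells (log2 fold change 3.21 for Injury against Normal, SE 0.67, adjusted p = 0.613, edgeR). SNCG, γ-synuclein, was at 291, 490, 85.0 and 19.9 CPM (2.76, SE 0.58, adjusted p = 0.613). For both genes the Injury samples lay above the Normal samples without overlap. Without Normal 1, SNCG gave 4.02 and IGF1 2.53. The effect in PROX1+ cells minus that in PROX1-0 cells was then 3.62 for SNCG and 0.62 for IGF1. Most of the IGF1 rise was thus not particular to PROX1+ cells in that fit.

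CRYAB, a small heat-shock protein, was at 229, 117, 1078 and 1477 CPM (-3.03, SE 0.46, adjusted p = 0.399). ABCC9, a potassium channel subunit of pericytes, was at 5.20, 5.68, 94.8 and 55.7 CPM (-3.84, SE 0.55, adjusted p = 0.399, edgeR). The 2 Injury levels of ABCC9 stood for at most 3 UMIs each, so the size of its fall is not well measured. Here the Normal samples were the higher ones, again without overlap. Without Normal 1, CRYAB gave -3.34 and ABCC9 -3.53. The effect in PROX1+ cells minus that in PROX1-0 cells was then -1.94 for CRYAB and -2.22 for ABCC9. CRYAB was at 1983 to 6231 CPM in fibroblast-gated cells.

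Over all genes tested, 1526 of 3148 had positive fold changes for Injury against Normal (median -0.02). By list, all 8 lymphatic endothelial markers tested had positive ones (median 1.73) and 6 of 7 blood endothelial markers negative ones (median -0.82), with 0 called in either. The 6 leukocyte trafficking genes tested were all positive (median 1.51), and 8 of 9 dissociation-response genes were (0.69), also with 0 called. CCL21 is on both the lymphatic and the trafficking list. Of VEGF and angiopoietin signalling genes 3 of 6 were positive, and of basement membrane and matrix genes 6 of 11. Among markers of other cell types, fibroblast markers were positive in 1 of 4 (median -2.17), smooth muscle and pericyte markers in 0 of 3 (-0.91), and the 1 myeloid marker tested, S100A9, had -3.30, with 0 called. In PROX1+ cells the summed fibroblast level given above was highest in Normal 2 and lowest in Normal 1, and the part of these cell types in the CRYAB and ABCC9 values was not tested. Without Normal 1, 8 of 9 lymphatic markers were positive (median 0.96) and 8 of 8 trafficking genes (1.20). So were 1 of 7 blood endothelial markers (-0.72) and 1 of 4 fibroblast markers (-3.14). Over all genes 1934 of 3745 were positive in that fit, with a median of 0.03.

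Whether the Injury effect differed between PROX1+ and PROX1-0 cells was tested by an interaction term over all 8 sums, with the library as a block. Of 7176 genes, 6 passed an adjusted p under 0.05 (0.0836%), 4 with a more positive effect in PROX1+ cells and 2 with a more negative one. They were CCDC3, PROS1, SNCG and ITM2A on the one side and CCL2 and ENSOCUG00000026099 on the other. With 1 library left out the count was 14 to 101, without Injury 1 37, without Injury 2 14, without Normal 1 57 and without Normal 2 101. With at least 2 endothelial genes asked of each cell it was 27.

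PROS1, the anticoagulant protein S, was at 130, 199, 26.1 and 75.7 CPM in PROX1+ cells and 20.1, 20.6, 45.8 and 46.0 CPM in PROX1-0 cells. It was thus higher in PROX1+ cells by a wide margin in both Injury libraries, less so in Normal 2, and lower in Normal 1 (difference of log2 effects 2.79, SE 0.42, adjusted p = 0.009, edgeR). ITM2A gave a difference of 2.27 (SE 0.40, adjusted p = 0.038), and without Injury 2 it no longer passed. SNCG was at 82.4, 66.6, 72.8 and 48.7 CPM in PROX1-0 cells and gave 2.47 (SE 0.42, adjusted p = 0.032). In arterial-gated cells, those with a UMI of the arterial gene BMX and none of SELP and SELE, it was at 283, 295, 183 and 441 CPM.

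CCDC3, a secreted coiled-coil protein, was at 54.6, 125, 0 and 3.98 CPM in PROX1+ cells and at most 8.54 CPM in PROX1-0 cells. Both Injury libraries stood well above both Normal libraries, where PROX1+ cells held 0 and 1 UMIs, and the difference of 7.17 (SE 0.89, adjusted p = 0.0013, edgeR) depends on that near-empty group. CCL2 was at 1260, 649, 712 and 840 CPM in PROX1+ cells against 2831, 1346, 625 and 714 CPM. It was lower in PROX1+ cells after injury and about equal in normal mucosa (difference -1.45, SE 0.17, adjusted p = 0.0013, edgeR), and it no longer passed without the highest doublet scores (-0.88). ENSOCUG00000026099 gave -1.65 (adjusted p = 0.0319, edgeR). At a limit of 10% mitochondrial UMIs 0 genes passed with a more negative effect, so neither CCL2 nor ENSOCUG00000026099 did. Without Normal 1 all 6 genes still passed, at 6.90 for CCDC3, 2.24 for PROS1, 3.62 for SNCG, 1.79 for ITM2A, -1.38 for CCL2 and -1.68 for ENSOCUG00000026099.

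Within MMRN1+ cells the same genes can be set beside each other for Injury 1, Injury 2 and Normal 2. PROS1 stood at 325, 374 and 193 CPM and ITM2A at 554, 539 and 451 CPM. SNCG stood at 613, 891 and 43.0 CPM, and IGF1 at 724, 1393 and 301 CPM. CCDC3 stood at 111, 242 and 0 CPM. Normal 2 was the lowest of the 3 for each of these genes, and for CCDC3 its 0 UMIs allow a level of up to 64.4 CPM. No test was run, since the split was made after its values were seen and Normal 2 gave 8 such cells.

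**Figure D5:**
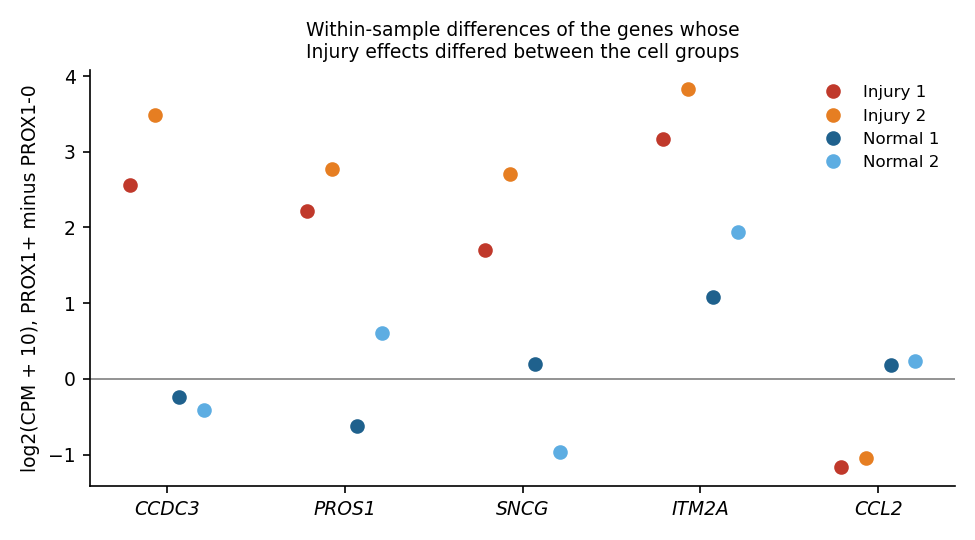
Difference in log2(CPM + 10) between PROX1+ and PROX1-0 cells of the same library (y axis) for the 5 genes with a symbol whose Injury effects differed between the cell groups (x axis), 1 point per library. For CCDC3, PROS1, SNCG and ITM2A both Injury points lie above both Normal points, and for CCL2 both lie below, at -1.16 and -1.04 against 0.19 and 0.23.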

How the data were processed

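Single-cell RNA of 2 Injury and 2 Normal bladder mucosa samples had been counted by the authors with Cell Ranger 6.0.1, per the file headers. The genome release is not given in the sources used here. The deposited matrices hold whole-number UMI counts for 18475 Ensembl rabbit genes, of which 9771 carry a symbol, so some markers (FLT4, PDPN, RELN) have no row under their symbol. Genes without a symbol were counted.

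Cells were gated as described. UMIs were summed per library over PROX1+ and PROX1-0 cells, since cells are not replicates (the study tested clusters cell by cell), and tested with edgeR 4.0.16 in R 4.3.3 (filterByExpr, TMM, glmQLFit, glmQLFTest), with the library as a block for the comparison within libraries, and Benjamini-Hochberg adjustment at 0.05. Each library contributed both sums, so this block follows the library. For Injury against Normal no block was used: the correlation of same-numbered samples' deviations was -0.0323 over 3169 genes, with 2 pairs. Shares used Wilson intervals and exact permutation.

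The 24 genes of the gate, mitochondrial genes included, were left out of tests. Named genes were those of the lists and, per comparison, the 12 (within libraries) or 6 (by condition) largest rises and falls past the threshold. These rises and falls were picked among genes with a symbol and a mean of 20 CPM or more where higher. The same direction in all libraries was asked only for the comparison within libraries. Members and lists were chosen with earlier results of these data known. Alternatives were DESeq2 1.42.0, its size factors, no filter on low counts, other gates (2 endothelial genes, 2 PROX1 UMIs, 2000 UMIs, 10% mitochondrial UMIs), removal of the highest 5% of Scrublet scores (scanpy 1.11.5; doublets were otherwise kept), libraries left out and, added after seeing the data, each condition alone and MMRN1+ members. The edgeR script was tested on simulated counts, where a larger share of calls was false than the threshold states.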

Additional observations from a re-analysis of the deposited data

Results flagged for a closer look

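SELE, the E-selectin of activated venules, had 1 library far from the others in its within-library difference of log2(CPM + 10). Normal 2 stood at 1.14, with PROX1+ cells the higher, against -1.11, -1.04 and -0.91 in Injury 1, Injury 2 and Normal 1. NID2 and ENSOCUG00000030067 had Normal 1 apart from the rest, at 0.03 and 0.41. Such gaps occur by chance in about 1 in 20 groups of 4 samples, and 54 results were checked for them, of which these 3 had one.

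The Injury effect differed between PROX1+ and PROX1-0 cells, by the interaction term, for CCDC3 (7.17 on the log2 scale), PROS1 (2.79), SNCG (2.47), ITM2A (2.27), CCL2 (-1.45) and ENSOCUG00000026099 (-1.65). The share of MMRN1+ cells among the members moved with the same contrast, and its part in these values was not tested.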

How the results depend on the processing

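Genes called higher and lower in PROX1+ cells numbered 160 and 357 with no filter on low counts, 50 and 23 with DESeq2, 29 and 9 with at least 2 endothelial genes, 185 and 351 with at least 2 PROX1 UMIs, 235 and 259 in Injury samples alone and 15 and 9 in Normal samples alone. With a library left out they ranged from 8 to 152 and from 10 to 151. The alternative without the library block gave 0 and 0.

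For Injury against Normal in PROX1+ cells, the counts were 73 with no filter, 5 with DESeq2 and 2 to 90 with a library left out. With the replicate number as a block the count was 3, but the numbers did not pair the samples. For the difference of Injury effects the counts were 51 with no filter, 27 with at least 2 endothelial genes, 23 with at least 2 PROX1 UMIs, 12 without the highest doublet scores and 14 to 101 with a library left out. The share difference was 4.29 points over the endothelial gate, 2.54 after thinning and 0.261 to 0.734 with a library left out. At a limit of 10% mitochondrial UMIs the difference of Injury effects had 4 genes with a more positive effect and 0 with a more negative one. The cause of these moves was not tested.

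Single genes turned direction as follows, in log2 fold change. With at least 2 endothelial genes, IL1RN was 0.15 and CD44 0.0713. With at least 2 PROX1 UMIs, NRP2 was 0.0619, GPM6A -0.43 and KDR -0.12. In Injury samples alone, NRP2 was 0.036 and KDR -0.14. In Normal samples alone, GPM6A was -0.84, SNCG -0.37, SELE 0.0818, IGF1 -0.15 and CRYAB 0.26. With no filter, GPM6A was -0.10 and KDR -0.0322. GPM6A was -0.0059 with DESeq2, -0.19 without the block, -0.0647 at a 10% mitochondrial limit and -0.57 to 0.24 with a library left out (negative without Injury replicate 2). KDR was -0.11 to 0.24 with a library left out (negative without Normal replicate 1), and CRYAB 0.10 without the block. Of the other values for single genes, 591 kept direction and side of the threshold, 153 lost the call and 29 gained one.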
